A study of Mus musculus with 24 samples.

Results

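The response that 2 dominant-negative FOXO constructs had in common was read from the 12 within-mouse differences of the series, the FOXOdn-labelled leg minus the control-labelled leg of the same animal. All 24 of 24 arrays belong to it, as 12 pairs of legs. In 6 mice 1 tibialis anterior muscle had been electroporated with FOXO1dn, and in 6 other mice with FOXO3dn. Both plasmids encode the forkhead DNA-binding part of the protein without its transactivation domain. The other leg of each mouse received a control plasmid that encodes LacZ, so that every muscle, controls included, had been injected and pulsed. The animals were male C57BL/6J mice of 30 weeks, and all of them were fasted and then given oral glucose before the muscles were taken 2 hours later. Electroporation reaches a portion of the fibers of a muscle and not a sorted cell type, and RNA of the whole muscle of each leg was hybridised to its own Affymetrix Mouse Gene 2.1 ST array.

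FOXO transcription factors are held in the cytosol by insulin through Akt and enter the nucleus when insulin is low or muscle is unloaded. There they turn on genes of ubiquitin ligases, autophagy and fat oxidation, and in immune cells they also restrain or permit inflammatory genes, depending on the setting. A FOXO protein without its transactivation domain still binds DNA and is used to block the endogenous factors at their sites.

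Every sign below follows the label that an array carries. Read in this way, most changes have the opposite direction to the one stated by the study for its constructs. Legs are therefore named by label (FOXO1dn-labelled, FOXO3dn-labelled or control-labelled), and which plasmid a leg held was not tested. Of the 2 probe sets of Foxo1 itself, the dimmer one gave a negative difference in 12 of 12 mice and the brighter one in 3.

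The arrays of the 12 mice had a median log2 intensity of 3.23 to 3.34, and Pearson r between arrays was 0.936 to 0.991 across 20261 genes. All 11 markers of fast muscle fibers were detected far above the array medians, with mean log2 intensities of 11 to 13. FOXO3dn mouse 2 stood apart from its cohort. The SD of its difference over all genes was 0.54, against 0.26 to 0.31 in the other 5 FOXO3dn mice and 0.27 to 0.53 in the FOXO1dn mice. Several results that rest on it are given without it as well.

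Over the 12 pairs the common response consisted mostly of lower values in the FOXOdn-labelled legs. A gene is called here when limma gave it an adjusted p below 0.05 together with an absolute log2 difference above 1, the thresholds of the study. Of 20261 genes, 230 were called, 222 of them lower (1.1% of genes tested) and 8 higher (0.0395%). At an adjusted p below 0.05 without a limit on size 3457 genes passed, of which 2166 were lower (10.7%) and 1291 higher (6.37%). This split depended on the scaling, with 1651 lower and 1878 higher after quantile normalization and 1799 lower and 1817 higher with arrays centred on their bright genes, whereas the called genes stayed mostly lower (183 lower and 11 higher, and 200 lower and 11 higher). Of the 222 genes called lower, 92 were lower in 12 of 12 mice and 99 in 11 of 12, and 7 of the 8 genes called higher were higher in 12 of 12. Among all genes 2.15% were lower and 1.18% higher in every mouse. Called genes were rare among dim genes, with 108 of 4367 genes at a mean log2 intensity of 4 to 6, 87 of 2375 at 6 to 8, 27 of 1018 above 8, but 8 of 12501 below 4. Just outside the limit on size was Sik1 with an absolute log2 difference of 0.99, and just inside it was Bst2 with 1.0. Without FOXO3dn mouse 2 the fit called 179 genes.

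The steadiest differences belonged to Atp13a3, Tnfrsf23 and Ppp1r27. Atp13a3, a P-type ATPase that carries polyamines, had log2 intensities of 7.13 to 8.08 (median 7.74) in the control-labelled and 5.88 to 6.13 (median 6.02) in the FOXO1dn-labelled legs. In the FOXO3dn mice these were 6.53 to 7.81 (median 6.94) and 5.45 to 6.23 (median 5.74). The kinds of leg did not overlap in either cohort, and the common log2 difference was -1.47 (SE 0.11, n = 12 mice, adjusted p = 1.82e-05). Tnfrsf23 encodes a decoy that binds TRAIL without a death signal. Its level was 6.58 to 8.06 (median 7.48) and 4.87 to 5.89 (median 5.14) in control-labelled and FOXO1dn-labelled legs, and 5.97 to 8.98 (median 7.23) and 4.25 to 5.58 (median 4.65) in the FOXO3dn mice. These ranges were separate too, with a common difference of -2.36 (SE 0.20, adjusted p = 2.54e-05). Ppp1r27, a subunit that steers protein phosphatase 1, went from 7.99 to 9.04 (median 8.61) down to 5.50 to 7.33 (median 6.46) in FOXO1dn mice and from 6.32 to 7.87 (median 6.73) down to 5.03 to 5.66 (median 5.44) in FOXO3dn mice. Its common difference was -1.81 (SE 0.16, adjusted p = 4.11e-05). Tnfrsf22, also a TRAIL decoy receptor, was lower in 12 of 12 mice by -1.13 (SE 0.22). Rrad, a Ras-related GTPase that dampens L-type calcium channels, was lower in 12 of 12 mice as well, by -1.59 (SE 0.19) with mice between -3.29 (FOXO3dn mouse 2) and -0.61.

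**Figure D1:**
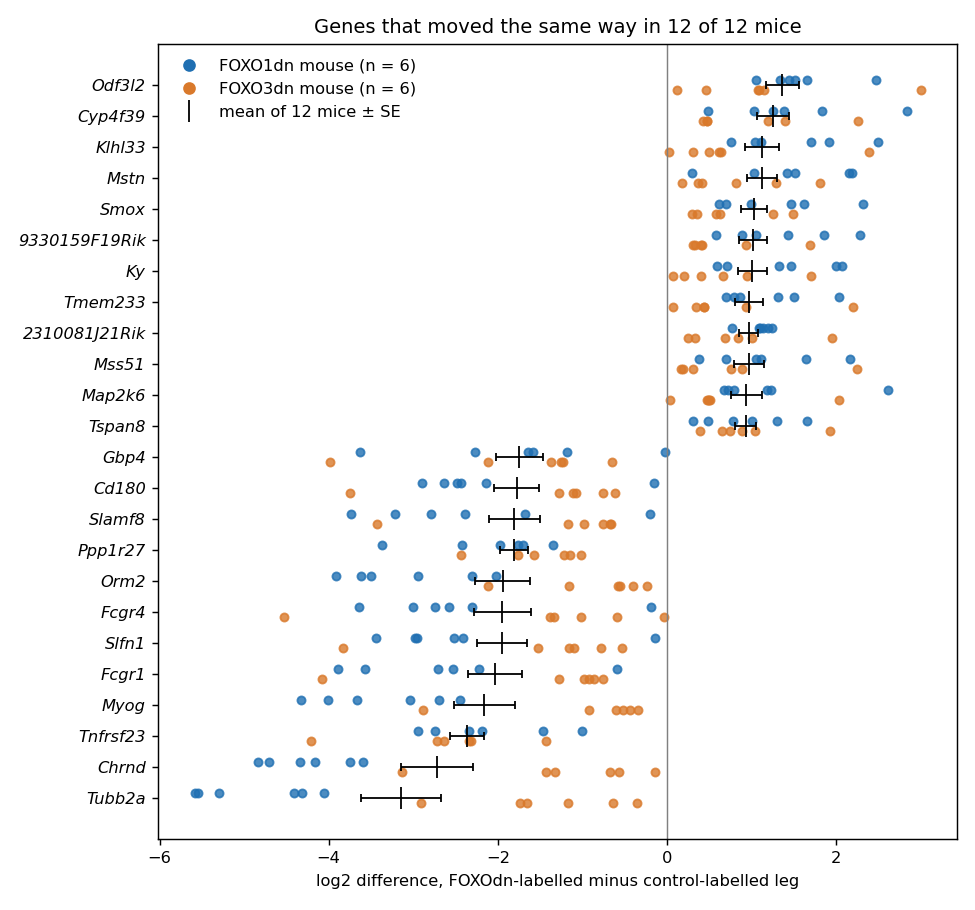
Log2 difference between the FOXOdn-labelled and the control-labelled leg in each mouse (horizontal axis) for the 12 genes with the largest falls and the 12 with the largest rises among those that moved the same way in every mouse; points are mice, black bars the mean of 12 mice with its standard error. Tnfrsf23 and Ppp1r27 lie close together in both cohorts, whereas Tubb2a, Chrnd and Myog form separate FOXO1dn and FOXO3dn clouds.

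Genes of the neuromuscular junction and of denervated muscle were among the largest falls, and here the cohorts differed in size. Tubb2a, a β-tubulin, was lower in 12 of 12 mice by -3.14 (SE 0.47, adjusted p = 0.0011), by -4.06 to -5.58 in the FOXO1dn mice and by -0.35 to -2.91 in the FOXO3dn mice. Chrnd, the δ subunit of the muscle acetylcholine receptor, was lower in all mice by -2.72 (SE 0.43). Chrng, the γ subunit that adult fibers replace by ε, was lower by -2.58 (SE 0.55) in 10 of 12 mice, with -0.36 to 0.12 in the 5 FOXO3dn mice other than mouse 2. Of 14 genes of the receptor and junction 6 were lower and 1 higher at an adjusted p below 0.05. The median of the 14 was -0.25 in FOXO1dn but 0.0027 in FOXO3dn mice, and 4 of them differed between the constructs. The gene that was higher was Chrne, the adult ε subunit (0.43, SE 0.12), and the α subunit Chrna1 (-1.42) and the receptor kinase Musk (-0.44) were lower, while Rapsn, Dok7, Lrp4 and Agrn had -0.12 to 0.13 and did not pass. Myog, the myogenic factor that drives receptor genes after loss of the nerve, was lower by -2.16 (SE 0.36) in 12 of 12 mice. Of 11 genes of denervation and excitability 6 were lower and 0 higher, among them Myh3, the embryonic myosin (-1.30), the cell cycle inhibitor Cdkn1a (-1.22), Runx1 (-1.05) and Hdac4 (-0.44). Of 11 tubulin genes 5 were lower, with -1.29 for Tubb2b, -1.04 for Tubb6 and -0.88 for Tubb5. Of 14 myogenic and MEF2 factors 3 were lower and 2 higher (median -0.05). Beside these lists, 10.7% of all genes were lower and 6.37% higher, with larger shares among brighter genes. The counts of the myogenic list are therefore not read as a trait of it.

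Only 8 genes rose past the limit on size. Their number was 3 without FOXO1dn mouse 3, 5 without FOXO3dn mouse 2 and 11 without FOXO3dn mouse 1. Mstn, which encodes the growth inhibitor myostatin, had log2 intensities of 5.95 to 7.38 (median 6.68) in control-labelled and 7.68 to 8.40 (median 8.13) in FOXO1dn-labelled legs, with no overlap. In the FOXO3dn mice the ranges of 6.08 to 7.51 (median 7.0) and 7.15 to 8.31 (median 7.74) overlapped. Within mice Mstn was higher in 12 of 12, by 1.12 (SE 0.18, adjusted p = 0.00125). The largest rise was that of Odf3l2, named after a sperm tail protein, with 1.36 (SE 0.19) and mice between 0.12 and 3.01. Cyp4f39, a fatty acid hydroxylase, rose by 1.26, Klhl33 and Klhl38, kelch-like proteins of muscle, by 1.12 and 1.14, the uncharacterised 9330159F19Rik by 1.01, and Ky, a protein of the Z-disc, by 1.01. Below the limit on size, but higher in every mouse, were Tmem233, Mss51 of fast fiber mitochondria, the uncharacterised 2310081J21Rik, Map2k6, a kinase that activates p38, and Tspan8, a tetraspanin, with 0.93 to 0.97. Tspan8 had nearly equal means in the cohorts, 0.92 and 0.94.

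Polyamine genes stood in both lists. Smox, the oxidase that turns spermine into spermidine, was higher by 1.03 (SE 0.15) in 12 of 12 mice, with 6.89 to 9.09 in control-labelled and 9.21 to 9.78 in FOXO1dn-labelled legs. The transporter Atp13a3, the spermidine acetyltransferase Sat1 (-0.70) and Odc1, the first enzyme of polyamine synthesis (-0.39), were lower. Of 10 polyamine genes 3 were thus lower and 1 higher, beside 10.7% lower and 6.37% higher among all genes. The shares are larger among brighter genes. A fit without the 12501 genes of a mean log2 intensity below 4 still had 1961 lower and 1344 higher genes. The counts of this short list are therefore not read as a trait of it.

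Genes of innate immunity and of antigen presentation made up the broadest group of lower values. In bulk muscle fewer cells of a type and less RNA per cell cannot be told apart. The share over all genes was 10.7% lower and 6.37% higher. Of 32 interferon-induced effectors and factors 31 were lower and 0 higher at an adjusted p below 0.05, with a median log2 difference of -1.12, beside 0.01 for all genes. Among them were the GTPase Gbp5 (-1.63, SE 0.26), the transcription factor Irf1 (-1.34), Parp12 (-1.37) and Usp18 (-1.57), which removes ISG15 from proteins, and Ifit3 with -0.06 did not pass. Of 18 sensors of foreign nucleic acid and their partners 17 were lower, with -1.48 for the adaptor Sting1, -1.78 for Zbp1, which binds Z-form nucleic acid, and -1.64 for Tlr13, a receptor of bacterial RNA in mice. MHC class I and immunoproteasome genes were lower in 15 of 16, with -1.73 for the peptide transporter Tap1 and -1.37 for Psmb9, and class II genes in 8 of 9, with -1.03 for H2-DMa and -1.54 for the thiol reductase Ifi30. All 14 Fc receptor and phagocyte signaling genes and all 5 genes of the phagocyte NADPH oxidase were lower, such as Fcgr1 (-2.03, SE 0.32), Fcer1g (-1.50) and Cybb (-1.59).

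Secreted immune factors and receptors fell with them. Chemokines were lower in 12 of 20 genes and higher in 0, beside 10.7% lower and 6.37% higher among all genes. Ccl2, which draws monocytes, was lower by -1.67 (SE 0.26) in 12 of 12 mice, Ccl7 by -1.87 and Ccl8 by -1.33, and Cxcl9, which draws T cells, by -2.12 (SE 0.38) in 11 of 12, with mice between -5.38 and 0.45. Of 16 complement genes 10 were lower, among them the receptor gene Itgam (-1.49), and C7 was higher (0.59), which did not pass without FOXO3dn mouse 2 or without FOXO1dn mouse 3. Of 17 TRAIL and TNF receptor genes 12 were lower and 0 higher (median -0.56), 9 of them without FOXO3dn mouse 2. Of 11 acute phase and metallothionein genes 9 were lower, with -1.94 for Orm2, an acid glycoprotein of plasma, -1.27 for Timp1 and -0.88 for Mt2. Slfn1, Slamf8, Cd180, Fcgr4 and Gbp4, all immune genes, completed the largest falls with -1.75 to -1.95, each in 12 of 12 mice. Lysosomal genes and cathepsins were lower in 16 of 18, such as the tetraspanin Cd63 (-1.03, SE 0.13), the protease Lgmn (-1.33) and Ctsc (-1.19).

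**Figure D2:**
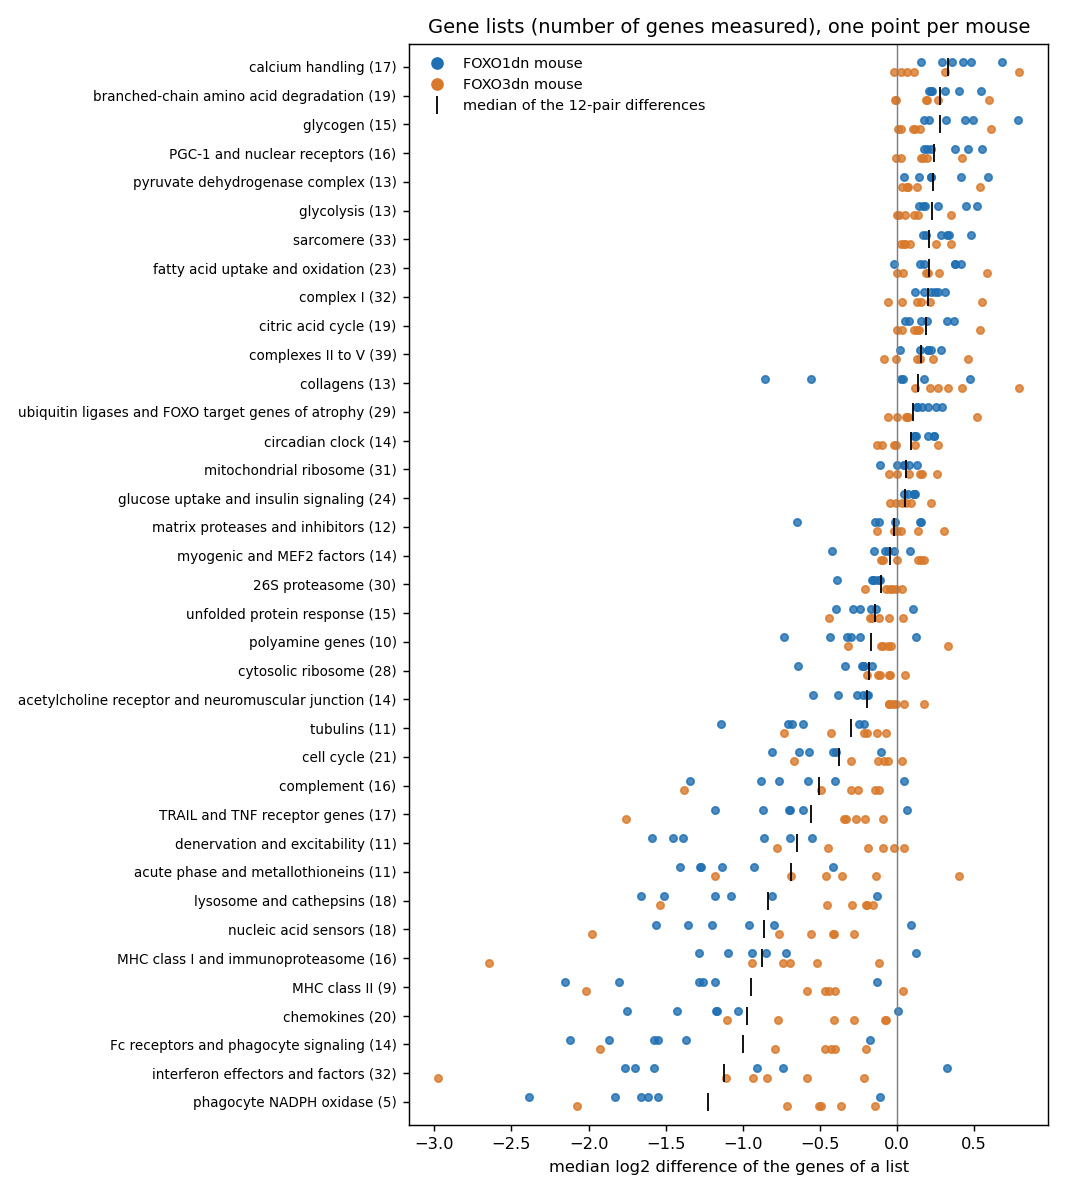
Median log2 difference of the measured genes of each of 37 lists (horizontal axis) in each mouse, with FOXO1dn mice in blue, FOXO3dn mice in orange and the median of the 12-pair differences as a black bar. Immune lists lie below 0 in 11 or 12 of 12 mice, lists of fuel oxidation lie slightly above 0, and FOXO3dn mouse 2 is the orange point farthest out in most lists.

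Markers of macrophages moved along with these genes. Of 20 macrophage and monocyte markers 17 were lower and 0 higher (median -1.12), among them Cd68 (-1.66), Aif1 (-1.26), Mpeg1 (-1.65) and Adgre1 (-1.27), whereas Cd163 and Cx3cr1 had 0.02 and -0.02. The summed linear intensity of the 20 markers was 5191 to 13030 in control-labelled and 1716 to 4561 in FOXO1dn-labelled legs, and 2858 to 6963 and 1512 to 4413 in the FOXO3dn mice, where the ranges overlapped. No marker was at 0, and all 20 had a mean log2 intensity above 4. Of 8 markers of natural killer cells 6 were lower, with -1.04 for Klrk1 and -1.08 for Ncr1, and of 8 T cell markers 4, such as Cd3g (-0.57), although 3 and 7 of these markers had a mean log2 intensity below 4. For neutrophils 1 of 8 and for B and dendritic cells 0 of 5 and 0 of 6 passed, with 7, 5 and 5 of these below a mean log2 intensity of 4, close to the median of the arrays. Summed intensities ran from 117 to 378 and 101 to 136 (natural killer), 92.3 to 166 and 82.6 to 102 (T cells), and 40.5 to 43.0 and 40.6 to 46.0 (B cells) in control-labelled and FOXO1dn-labelled legs. In the FOXO3dn mice they were 125 to 430 and 99.1 to 235, 74.3 to 133 and 69.9 to 103, and 40.4 to 44.0 and 39.3 to 43.0. Endothelial markers were higher in 7 of 11 (median 0.25), with 0.39 for Kdr, but in 3 without FOXO3dn mouse 2 and in 3 without FOXO1dn mouse 3. Fibroblast markers passed in 1 of 10 (Lum, 0.34), satellite cell markers in 3 of 8 (Sdc4 with -0.89, Chodl with 0.38 and Spry1 with 0.29), and Schwann cell markers in 0 of 5. Adipocyte markers passed in 1 of 6 (higher), red blood cell markers in 0 of 2, fast fiber markers in 4 of 11 (higher) and slow fiber markers in 1 of 7, Atp2a2, which was lower. Among further immune genes Ly6c2 had -2.15 and Cd48 -0.69, while Itgax (-0.36), Ly6c1 (0.11) and the reference gene Tbp (-0.13) did not pass. Beside these marker counts, 10.7% of all genes were lower and 6.37% higher. The part of cell numbers in the lists above was not tested.

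Across the 12 mice the macrophage markers and other lists varied together. The list of complex I was higher where macrophage markers were lower (Pearson r = -0.70, permutation p = 0.00606, Spearman rho = -0.83, permutation p = 0.00156, n = 12 mice, two-sided, 100000 resamples). For the citric acid cycle r was -0.77 (permutation p = 0.003) and rho -0.85 (permutation p = 0.00094), and for degradation of branched-chain amino acids -0.77 (permutation p = 0.00322) and -0.83 (permutation p = 0.0016). Interferon genes had r = 0.70 (permutation p = 0.00956) and rho = 0.62 (permutation p = 0.0372), and MHC class I genes 0.63 (permutation p = 0.018) and 0.69 (permutation p = 0.0182). For the receptor and junction genes r was 0.70 (permutation p = 0.0112) and rho 0.60 (permutation p = 0.0428). Relations over 12 mice include the difference between the cohorts. The median mouse had -1.65 in the FOXO1dn and -0.39 in the FOXO3dn cohort for macrophage markers, and -0.24 and -0.02 for the junction list. No p value was computed within a cohort. In this family of 6 relations the adjusted permutation p values were 0.00966 to 0.018 for r and 0.0032 to 0.0428 for rho, and none of the 6 lists shares a gene with the markers. Without the 2 mice farthest from the median, FOXO1dn mice 2 and 3, r was -0.72 for complex I, -0.67 for the citric acid cycle, -0.75 for branched-chain amino acids, 0.69 for interferon and 0.70 for MHC class I genes, but 0.42 for the junction list. Within the 6 FOXO1dn mice r was -0.58, -0.77, -0.56, 0.86, 0.89 and 0.72 for complex I, citric acid cycle, branched-chain amino acids, interferon, MHC class I and junction genes, and within the 6 FOXO3dn mice -0.97, -0.98, -0.95, 0.93, 0.93 and 0.04. FOXO3dn mouse 2 decided several of these values. Among the other 5 FOXO3dn mice r was -0.90, -0.79, -0.89, 0.24, 0.26 and -0.67 in the same order, so that the values for interferon and MHC class I genes rested on this mouse. Over the 11 mice without it r was -0.73, -0.82, -0.76, 0.71, 0.68 and 0.82. The relation of the junction list with macrophage markers thus did not hold among FOXO3dn mice. Among FOXO1dn mice, mouse 1 had the highest values, -0.25 for macrophage markers, 0.33 for interferon and 0.13 for MHC class I genes. The other FOXO1dn mice had -2.40 to -1.47, -1.77 to -0.74 and -1.28 to -0.72. The relations without FOXO1dn mouse 1 were not tested. The values of both lists in a relation come from the same arrays.

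**Figure D3:**
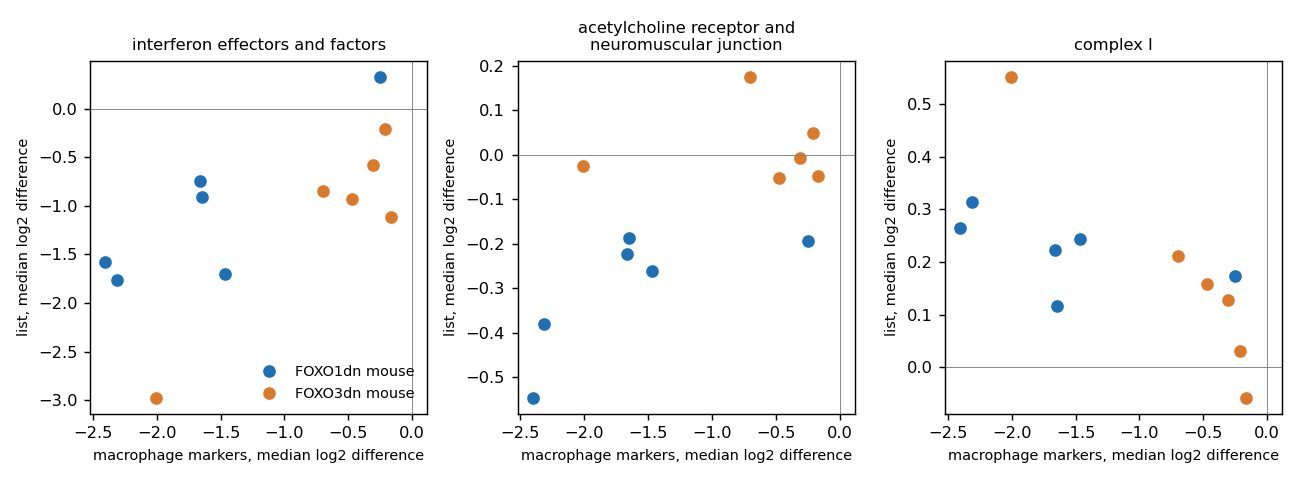
Median log2 difference of the macrophage markers (horizontal axis) against that of 3 gene lists (vertical axes), with one point per mouse, blue for FOXO1dn and orange for FOXO3dn. Complex I lies higher where macrophage markers lie lower in both cohorts. Interferon genes follow the markers among FOXO3dn mice only through mouse 2 (r = 0.24 without it). Among FOXO1dn mice they follow the markers with mouse 1 included, which has the highest values of both (0.33 and -0.25). The relation without FOXO1dn mouse 1 was not tested. The junction list shows no relation among FOXO3dn mice (r = 0.04).

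Genes of fuel oxidation were higher by small amounts in many mice. In the citric acid cycle 10 of 19 genes were higher and 0 lower, against 6.37% higher among all genes, with 0.32 for Idh3a (SE 0.07, 12 of 12 mice) and 0.37 for Idh2. Of 32 complex I genes 19 were higher and 0 lower (median 0.20), such as Ndufb11 (0.47, SE 0.09), and of 39 genes of complexes II to V 15 were higher and 1, Cox6a1 (-0.33), was lower. Fatty acid genes were higher in 10 of 23, with 0.57 for the transporter Slc27a1 and 0.52 each for Hadh and Acaa2. Degradation of branched-chain amino acids had 13 of 19 genes higher, with 0.60 for Bckdhb (SE 0.11), a subunit of the dehydrogenase that commits them to oxidation. The pyruvate dehydrogenase list had 8 of 13 higher, each of Pdha1, Dlat, Pdhx and Pdpr in 12 of 12 mice (0.30 to 0.40), and the inhibitory kinase Pdk3 lower (-0.33). None of these genes reached a log2 difference of 1, and without FOXO3dn mouse 2 the counts of higher genes were 7, 12, 10, 8, 11 and 8 for citric acid cycle, complex I, complexes II to V, fatty acids, branched-chain amino acids and pyruvate dehydrogenase. With arrays centred on their bright genes they were 15, 27, 25, 14, 15 and 9 in the same order.

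Glucose and glycogen genes were mixed. Of 15 glycogen genes 8 were higher and 2 lower, with 0.83 (SE 0.14) for Ppp1r3c, which brings phosphatase to glycogen, 0.67 for the laforin gene Epm2a and 0.43 for the synthase Gys1, against -0.23 for the branching enzyme Gbe1 and -0.30 for Stbd1. Glycolysis had 7 of 13 higher, such as Gpd1 (0.60) and Tpi1 (0.32), and Hk1 lower (-0.32). Slc2a1, which encodes GLUT1, was lower by -1.19 (SE 0.19) in 11 of 12 mice, while Slc2a4, which encodes the insulin-regulated GLUT4, was higher by 0.38 (SE 0.09). In insulin signaling Irs1 (0.60), Irs2 (0.39), Insr (0.34), Grb14 (0.45), Tbc1d1 (0.43), Tbc1d4 (0.25) and Tsc1 (0.57) were higher, and Akt1 (-0.43, 12 of 12 mice), Akt2 (-0.18), Pik3r1 (-0.26) and Rac1 (-0.15) lower. The list thus had 8 of 24 genes higher and 5 lower (10 and 3 with arrays centred on bright genes). Of all genes 6.37% were higher and 10.7% lower, with larger shares among brighter genes.

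Classical FOXO targets of muscle atrophy were more often higher than lower in the FOXOdn-labelled legs. Of 29 genes 12 were higher and 2 lower, with a median of 0.10, beside 6.37% higher and 10.7% lower among all genes. Trim63 and Fbxo32, the ubiquitin ligases MuRF1 and atrogin-1, had 0.59 (SE 0.10, adjusted p = 0.00178) and 0.45 (SE 0.11, adjusted p = 0.0119). Bnip3 (0.35), Ulk1 (0.40) and Ulk2 (0.34) of autophagy, Pdk4 (0.23), Klf15 (0.54) and Gadd45g (0.69) were higher, and the autophagy receptor Sqstm1 (-0.25, 12 of 12 mice) and the lysosomal protease Ctsl (-0.50) were lower. Txnip, Ccng2, Cited2 and Sesn1, targets of FOXO in many cells, had -0.02 to 0.04 and did not pass. Without FOXO3dn mouse 2 there were 9 higher and 2 lower. The FOXO genes themselves were measured by 5 probe sets. The brighter Foxo1 probe set had 0.19 (SE 0.07, adjusted p = 0.0834 over probe sets), the dimmer one -0.84 (SE 0.08, adjusted p = 0.000111, -0.99 in FOXO1dn and -0.70 in FOXO3dn mice) with mice between -1.37 and -0.33, so that the probe sets of this gene disagree. Foxo3 had 0.05, Foxo4 0.39 (adjusted p = 0.0658) and Foxo6 0.03.

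Of the other muscle lists, calcium handling and the sarcomere were higher, and protein synthesis and folding were lower in part. Calcium genes were higher in 11 of 17, with 0.67 for the junctophilin Jph2 and 0.36 for Casq1, and the slow calcium pump Atp2a2 was lower by -0.66 (SE 0.13) in 12 of 12 mice. Of 33 sarcomere genes 14 were higher and 0 lower, such as Mylk2 (0.86), Myoz3 (0.83) and Tcap (0.59). Nuclear receptor and PGC-1 genes were higher in 7 of 16, with 0.84 for Nr4a1 (SE 0.14), 0.79 for Perm1 and 0.78 for Nr4a3. Genes of the unfolded protein response were lower in 7 of 15, with -0.61 for the sensor Atf6 (SE 0.07) and -0.51 for the chaperone Hsp90b1, each in 12 of 12 mice, and Chac1 was higher (0.86). The 26S proteasome had 9 of 30 lower and the cytosolic ribosome 10 of 28 (6 with arrays centred on bright genes), with -0.33 for Psmd11 and -0.41 for Rpl19, and cell cycle genes 13 of 21, with -0.66 for Mcm6 and -0.80 for Ccnd1. Collagens passed in 2 of 13 (1 without either FOXO3dn mouse 2 or FOXO1dn mouse 3) and matrix proteases and their inhibitors in 3 each way of 12. Of 14 clock genes 4 were higher and 2 lower, but 2 and 2 without FOXO3dn mouse 2 and 2 and 1 without FOXO1dn mouse 3. Mitochondrial ribosomal genes passed in 2 of 31, which became 12 after quantile normalization. The background for these counts is 10.7% lower and 6.37% higher among all genes. These shares are held down by 12501 genes with a mean log2 intensity below 4. There were 4367 genes at 4 to 6, 2375 at 6 to 8 and 1018 above 8. A fit of these brighter genes alone had 1961 lower and 1344 higher. Counts such as 9 of 30 (proteasome) or 4 of 14 (clock) lie nearer to that share.

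Pooling brought a small set of genes over the thresholds that neither cohort reached alone. FOXO1dn mice alone gave 431 called genes (2.13% of genes tested) and FOXO3dn mice alone 2 (0.00987%), namely Tnfrsf23 and Ppp1r27, while 2674 genes had an unadjusted p below 0.05 there. Of the 230 genes called over 12 pairs, 217 were called in FOXO1dn mice alone, 2 in FOXO3dn mice alone, and 13 in neither. The 8 of these 13 with the smallest pooled p were the stretch-responsive cofactor Ankrd1 (-1.05, adjusted p = 0.00151), Tnfrsf22, and the interferon-induced genes Xaf1 (-1.0), Gbp7 (-1.90), Bst2 (-1.0), Irgm1 (-1.38), Ifit1 (-1.29) and Irgm2 (-1.68). Gbp7, a guanylate-binding protein, had log2 intensities of 7.14 to 10.33 (median 9.76) in control-labelled and 5.89 to 9.44 (median 8.33) in FOXO1dn-labelled legs, and 9.97 to 11.66 (median 10.67) and 6.13 to 10.68 (median 8.09) in the FOXO3dn mice. All 4 ranges were wide, and FOXO1dn mouse 1 ran the other way with 1.03. Xaf1, Bst2 and Ifit1 leaned on FOXO3dn mouse 2, with -2.95, -2.82 and -4.16 there. The other FOXO3dn mice had -1.24 to -0.22, -1.07 to -0.44 and -1.34 to -0.42. Xaf1 and Bst2 lie at the limit on size, and their pooled values without this mouse are not given. Conversely, 214 genes called in FOXO1dn mice alone were not called over 12 pairs, 209 of them still with an adjusted p below 0.05 there.

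Genes chosen in a cohort can be read in the other, since mice and control legs are separate. Of the 403 genes called lower in FOXO1dn mice, 397 were lower on average in FOXO3dn mice (98.5%, beside 48.8% of all genes), and 323 of them (80.1%) had an unadjusted p below 0.05, which 8.03% of all genes reached in that direction. Their median log2 difference was -1.33 where they were chosen and -0.65 where they were read. Of the 28 genes called higher 28 were higher in FOXO3dn mice and 26 had an unadjusted p below 0.05, beside 5.17% of all genes, with medians of 1.17 and 0.63. In single FOXO3dn mice the median of the 403 genes was -0.28 in mouse 1, -1.92 in mouse 2, -0.34 in mouse 3, -0.34 in mouse 4, -0.43 in mouse 5 and -0.71 in mouse 6. The direction of these falls was thus present in each FOXO3dn mouse and mouse 2 was far larger than the others. For the 28 rises the median was 0.07 in mouse 1, where 18 of 28 were higher. It was 1.85 in mouse 2 and 0.24 to 0.70 in the other FOXO3dn mice. The other way round, of the 100 genes lower in FOXO3dn mice with the smallest p, 94 were lower in FOXO1dn mice and 82 with an unadjusted p below 0.05, beside 16.1% of all genes, and the medians were equal in size, -0.62 and -0.64. Over the 222 genes called lower the median was -1.65 in FOXO1dn and -0.96 in FOXO3dn mice, and 205 of the 230 called genes had the larger mean in FOXO1dn mice.

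**Figure D4:**
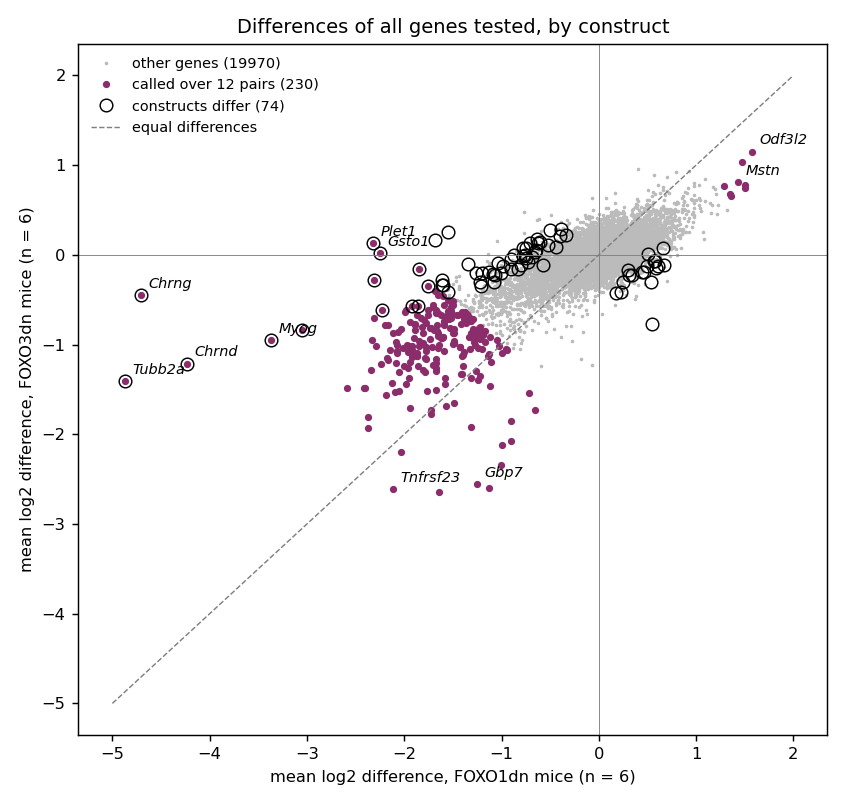
Mean log2 difference of each of 20261 genes in FOXO1dn mice (horizontal axis) against FOXO3dn mice (vertical axis), with the 230 genes called over 12 pairs in purple and the 74 genes whose difference depends on the construct circled. Most called genes lie in the lower left, Tubb2a, Chrng, Chrnd and Myog far to the left, and Gbp7 and Tnfrsf23 below the line of equal differences.

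The constructs differed in 74 genes (0.365% of genes tested at an adjusted p below 0.05), and 13 of these are among the 230. When legs were not paired by mouse (no replicate block) the count was 42, 37 of them among the 74. All 13 had the larger change in FOXO1dn mice, led by Chrng (FOXO1dn minus FOXO3dn -4.25, SE 0.30, adjusted p = 6.15e-06), Tubb2a (-3.46, SE 0.39), Chrnd (-3.02, SE 0.40) and Plet1, a surface protein of epithelial progenitors (-2.45, SE 0.32). The pooled means of Plet1 (-1.09) and of Gsto1, a glutathione transferase (-1.11), hide cohort means of opposite sign, -2.32 and 0.13, and -2.24 and 0.02. These were the only 2 of the 230 called genes with opposite signs, which the choice by the pooled mean makes rare, and 34 of the 74 had them. Others of the 34 were Kcnn3, a calcium-activated potassium channel, Myom3, Naglu and Sft2d2 with falls in FOXO1dn mice (-0.61 to -1.55) and means of 0.08 to 0.25 in FOXO3dn mice. Npr3, the clearance receptor of natriuretic peptides, was higher in 6 of 6 FOXO1dn mice (0.35 to 0.82) and lower in 6 of 6 FOXO3dn mice (-1.58 to -0.22), a difference of 1.32 (SE 0.22, adjusted p = 0.0178). Abcb1a, a drug efflux pump, had 0.27 to 0.89 and -0.52 to -0.16, a difference of 0.84 (SE 0.12). Without FOXO3dn mouse 2 the count was 328, and it was 15 to 131 without any 1 of the other mice.

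For the genes that differ between the constructs, the cohorts were farther apart in their control-labelled than in their FOXOdn-labelled legs. Tubb2a had log2 intensities of 8.28 to 9.96 (median 9.13) in the control-labelled legs of FOXO1dn mice and of 4.37 to 6.53 (median 5.30) in those of FOXO3dn mice, although these legs carry the same plasmid by their labels. The FOXO1dn-labelled and FOXO3dn-labelled legs had similar levels, 3.56 to 5.03 (median 4.30) and 3.62 to 4.5 (median 4.05). Chrng was at 7.91 to 9.29 (median 8.74) and 3.74 to 5.67 (median 4.23) in the 2 sets of control-labelled legs and at 3.59 to 4.58 (median 3.84) and 3.46 to 5.18 (median 3.97) in the FOXOdn-labelled legs. Chrnd, Myog and Gsto1 had medians of 8.83, 8.17 and 8.96 against 4.94, 5.42 and 6.18 between the control-labelled legs, and of 4.60, 4.68 and 6.75 against 3.96, 4.86 and 6.22 between the FOXOdn-labelled legs. Of the 13 called genes that differ between the constructs, 13 had control-labelled means more than 1 apart and 0 had FOXOdn-labelled means that far apart. Over all 20261 genes the control-labelled means of the cohorts were more than 1 apart in 209 genes and the FOXOdn-labelled means in 33, with SDs of the gap of 0.28 and 0.22, while the median absolute gaps were alike, 0.15 and 0.14, and the control-labelled gap was the larger in 10932 genes. Of the 230 called genes 64 and 2 were that far apart. For Npr3 the control-labelled legs differed in the other direction, with medians of 4.44 in FOXO1dn and 5.47 in FOXO3dn mice, beside 4.81 and 4.56 in FOXOdn-labelled legs. Cohort and construct cannot be told apart in these levels, since each cohort holds 1 construct, and no test was made of them.

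The first principal component separated the legs of every mouse. In a principal component analysis of the 24 arrays with genes centred within cohorts, the first component held 43.4% of the variance, and the FOXOdn-labelled leg lay above the control-labelled leg in 12 of 12 mice, with a sign that is arbitrary. The mean difference was 34.3 ± 22.8 (SD over 12 mice), with p = 0.000488 by an exact test over all sign flips (two-sided), which is the lower bound for 12 mice. FOXO1dn mice differed by 11.7 to 69.0 (median 45.9) and FOXO3dn mice by 11 to 68.3 (median 14.1). In the FOXO1dn cohort 0 FOXOdn-labelled arrays lay below the highest control-labelled array, and in the FOXO3dn cohort 2 did. The next components held 5.91% and 5.46% of the variance, with exact p = 0.872 and 0.401 between the legs.

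**Figure D5:**
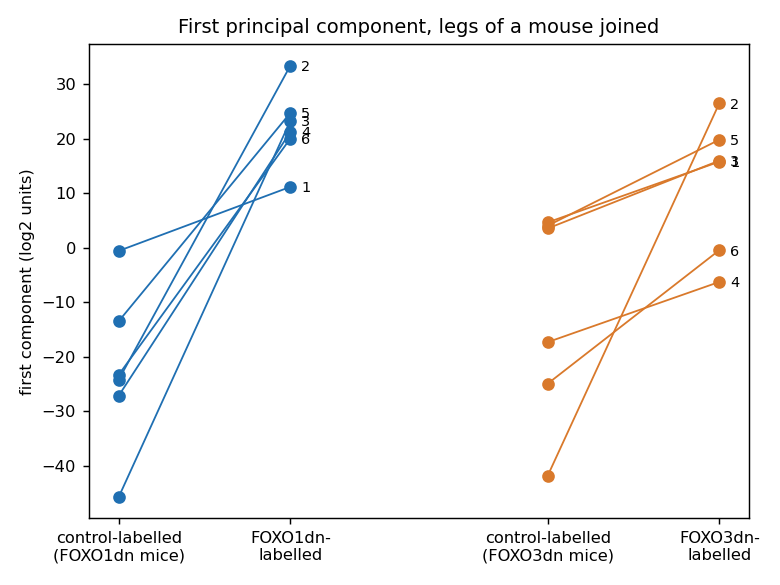
Position of each array on the first principal component of 24 arrays (vertical axis, log2 units), with the control-labelled and the FOXOdn-labelled leg of a mouse joined and the mouse number at the right. Every line rises, by 11 to 69.0, and FOXO3dn mouse 2 spans as much as the steepest FOXO1dn mice.

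Promoters of the called genes were searched for 5 motifs, on both strands, in RefSeq windows from 250 bases before to 50 bases after the transcription start (GRCm38.p6). The genes called lower had 201 such windows for 173 genes, the genes called higher 7 for 6 genes, and all genes tested 19771 for 16232 genes. The interferon element, GAAA, any 2 bases and GAAA again, was in 30 of the 201 windows (14.9%), beside 3.27% of all windows. The forkhead motif GTAAACA was in 4 (1.99%, beside 3.09%), the STAT motif TTCCNGGAA, which can share letters with the interferon element, in 3 (1.49%, beside 1.19%), the E-box CAGCTG of myogenic factors in 39 (19.4%, beside 16.1%) and the ERR motif TCAAGGTCA in 0 (beside 0.309%). Among the 7 windows of genes called higher 1 held the forkhead motif and 1 the E-box. A match is a run of letters and says nothing of binding. Windows of the genes with the smallest p that were lower in 12 of 12 mice and hold the interferon element are shown for Myd88, the adaptor of Toll-like receptors (-1.37, SE 0.20), and for Aif1, a macrophage protein, with the matches in capitals. That of Myd88 is chr9:119339969-119340268 on the minus strand, with the match 40 to 31 bases before the start. That of Aif1 is chr17:35176003-35176302 on the minus strand, with the match 157 to 148 bases before the start.
Myd88: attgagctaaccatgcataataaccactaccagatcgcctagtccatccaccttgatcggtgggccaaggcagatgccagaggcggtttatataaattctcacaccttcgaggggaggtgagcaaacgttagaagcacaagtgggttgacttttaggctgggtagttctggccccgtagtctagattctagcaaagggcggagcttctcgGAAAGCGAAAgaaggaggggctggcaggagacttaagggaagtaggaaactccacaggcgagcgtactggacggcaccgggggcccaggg
Aif1: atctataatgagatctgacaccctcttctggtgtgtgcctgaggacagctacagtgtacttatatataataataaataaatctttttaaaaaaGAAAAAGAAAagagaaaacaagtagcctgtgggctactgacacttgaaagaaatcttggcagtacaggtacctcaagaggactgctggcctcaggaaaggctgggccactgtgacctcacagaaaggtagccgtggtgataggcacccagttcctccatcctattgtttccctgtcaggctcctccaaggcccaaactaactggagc

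The other windows shown are those of Tnfrsf23, the steadiest fall whose window holds an E-box, and of 9330159F19Rik, a gene called higher whose window holds the forkhead motif. Of the 92 genes called lower and lower in 12 of 12 mice, 70 had a window and 0 held the forkhead motif. Among all genes lower in 12 of 12 mice 9 of 353 did, and among all genes tested 570 of 16232. At such shares few matches are expected in 70 genes, so the 0 is not read as a depletion. The Tnfrsf23 window is chr7:143685826-143686125 on the minus strand, with the E-box 12 to 7 bases before the start. The 9330159F19Rik window is chr10:29211393-29211692 on the plus strand, with the forkhead motif, read on the other strand as TGTTTAC, 88 to 82 bases before the start and an E-box 9 to 14 bases after it.
Tnfrsf23: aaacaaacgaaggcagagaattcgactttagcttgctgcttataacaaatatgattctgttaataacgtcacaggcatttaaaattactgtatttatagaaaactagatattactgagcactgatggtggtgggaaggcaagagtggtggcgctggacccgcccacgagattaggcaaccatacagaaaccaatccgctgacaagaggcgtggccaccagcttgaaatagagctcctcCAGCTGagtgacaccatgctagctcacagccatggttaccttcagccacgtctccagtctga
9330159F19Rik: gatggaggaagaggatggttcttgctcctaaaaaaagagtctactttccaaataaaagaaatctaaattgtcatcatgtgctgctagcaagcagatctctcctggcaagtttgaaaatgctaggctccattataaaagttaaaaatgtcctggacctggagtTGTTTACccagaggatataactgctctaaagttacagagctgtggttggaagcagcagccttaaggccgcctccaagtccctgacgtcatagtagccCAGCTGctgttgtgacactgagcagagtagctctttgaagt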

How the data were processed

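Total RNA of 24 muscles was hybridised to Affymetrix Mouse Gene 2.1 ST arrays. The authors deposited log2 intensities of 41345 probe sets, normalized together by RMA, and these were used unchanged. A single gene symbol is given for 23521 probe sets, several for 1820 and none for 16004. MicroRNAs, pseudogenes and predicted genes (2017 probe sets) were left out, and each gene was represented by its probe set with the highest mean, which left 20261 genes. Linear intensities were summed for marker lists only.

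For each of 12 mice the control-labelled leg was subtracted from the FOXOdn-labelled leg, so that each animal is its own block and no mouse is tied to one of the other cohort. Mean differences were tested in limma (moderated variances, Benjamini-Hochberg adjustment over all genes), and the constructs by the difference between their 6 and 6 mice. The pairing comes from the contralateral design and the mouse numbers of the labels. As a check, the deviation of a FOXOdn-labelled leg from its group mean was correlated across genes with that of the other leg (r = -0.37 to 0.29, lowest in FOXO3dn mouse 2). The consensus correlation of the legs of a mouse in limma was 0.061. These values are low and say little of the pairing. P-values cover the spread between these mice, and the number of arrays limits the precision. Alternatives were other scalings, probe set rules, variance models and blocks, and leaving out each mouse. The relations without FOXO3dn mouse 2 were added after seeing the data.

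The members and lists were chosen with earlier results of these data known. Named by rule were the 12 largest falls and rises that went one way in 12 of 12 mice, up to 4 genes per list and direction by p, marker genes, up to 8 genes called in neither cohort alone, up to 8 with opposite signs and up to 4 with the largest construct difference, and the genes of the study's qPCR. Other list members were named after their values were seen. Of 844 genes on 37 lists and 14 marker lists, 770 had a value, 33 share a probe set with other symbols and 41 were not analysed here. For a gene with several RefSeq promoter windows, the first with the motif was shown. Software was Python 3.11.15 (numpy 2.4.6, pandas 2.3.3, scipy 1.17.1) and R 4.3.3 (limma 3.58.1, statmod 1.5.0).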

Additional observations from a re-analysis of the deposited data

Results flagged for a closer look

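Values of 1 mouse that stood apart from the other 5 of its cohort (a gap over 0.625 of the range of 6 values, which chance exceeds in about 1 in 20 groups) were found 40 times in 186 groups, and 30 of the 40 belong to FOXO3dn mouse 2. On the first principal component this mouse differed by 68.3, against 11 to 24.5 in the other 5 FOXO3dn mice. Its log2 differences were -4.53 for Fcgr4, -4.16 for Ifit1, -4.07 for Fcgr1, -3.83 for Slfn1, -3.75 for Cd180, -3.43 for Slamf8, -2.95 for Xaf1, -2.89 for Myog, -2.82 for Bst2 and -1.94 for Chrng. It also had the highest values of its cohort for Odf3l2 (3.01), Klhl33 (2.39), Mss51 (2.24) and Map2k6 (2.04). Its list medians stood apart for interferon genes (-2.97), MHC class I (-2.65), natural killer cell markers (-2.25), the phagocyte oxidase (-2.07), MHC class II (-2.02), macrophage markers (-2.01), nucleic acid sensors (-1.98), Fc receptors (-1.93), TRAIL and TNF receptor genes (-1.76), lysosomal genes (-1.54) and complement (-1.38). They did so on the other side for glycogen (0.61), the citric acid cycle (0.54), the pyruvate dehydrogenase complex (0.54) and FOXO targets of atrophy (0.52).

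FOXO1dn mouse 1 was the least changed of its cohort for Cd180 (-0.15), Slfn1 (-0.14) and the phagocyte oxidase list (-0.11), and FOXO1dn mouse 3 the most changed for Map2k6 (2.62), Sft2d2 (-1.32), the 26S proteasome (-0.39) and the cytosolic ribosome (-0.64). The matrix protease list was apart in FOXO1dn mouse 2 (-0.65), 2310081J21Rik in FOXO1dn mouse 5 (0.77) and Sft2d2 in FOXO3dn mouse 1 (0.44).

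Named genes whose change differed between the constructs by limma had FOXO1dn minus FOXO3dn differences of -4.25 for Chrng, -3.46 for Tubb2a, -3.02 for Chrnd, -2.45 for Plet1, -2.41 for Myog, -2.26 for Gsto1, -2.21 for Orm2, -1.81 for Kcnn3, -0.86 for Sft2d2, -0.84 for Myom3 and -0.75 for Naglu, and of 0.84 for Abcb1a and 1.32 for Npr3.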

How the results depend on the processing

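The 230 called genes stayed within 1.5 times under all alternatives, from 173 without FOXO1dn mouse 3 to 262 without FOXO3dn mouse 4, and the 3457 genes at an adjusted p below 0.05 from 2758 to 3630 without single mice. FOXO1dn mice alone gave 321 to 592 called genes without single mice. The 2 genes of FOXO3dn mice alone became 9 with no replicate block, 17 with the mouse as a random block, 0 after quantile normalization and 0 to 25 without single mice, 25 without mouse 2. The 74 genes that differ between the constructs became 42 with no replicate block and 15 to 328 without single mice, 328 without FOXO3dn mouse 2. The cause was not tested. Without the replicate block the pooled fit called 230 genes, as with it. The mean differences are the same in both fits, so this equal count says little of the pairing. At an adjusted p below 0.05 alone 3596 genes passed without the block and 3814 with the mouse as a random block. The first component kept its direction with a mean difference of 31.3 to 36.5 without single mice. For 260 named genes 5952 values in 24 settings were compared with the main fit. None changed direction among the 193 genes at an adjusted p below 0.05 in the main fit. Changes of direction in the other named genes are not covered by this count. The threshold was lost by 75 values in 17 genes and gained by 79. Of 1702 list counts 84 moved by more than 1.5 times. Centring on bright genes raised differences, with the median over all genes going from 0.0079 to 0.0421. Of the genes tested, 12501 had a mean log2 intensity below 4, near the array medians, and 8 of the called genes are among them.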
